A study of Mus musculus with 22 samples.

Results

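The genes described here are 33 genes of endoplasmic reticulum stress and protein folding, measured in liver and lung of mice that had inhaled benzene or filtered air. They were chosen by gene symbol from what the proteins are known to do, and all 33 are listed in both deposited tables, out of 12259 genes in liver and 15971 in lung. Poly-A RNA came from male C57BL/6J mice aged 14 weeks. The benzene group breathed 50 ppm benzene for 6 hours a day on 5 days of each week over 6 weeks, and the air group breathed air purified by carbon and HEPA filters. Liver had 5 benzene and 5 air libraries, and lung had 6 benzene and 6 air libraries. The labels number the samples without saying that each is a separate animal, so p-values may measure technical spread only.

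Proteins that enter the secretory pathway are threaded into the endoplasmic reticulum, folded there by chaperones, cross-linked by disulfide isomerases and, where folding fails, drawn back into the cytosol for degradation. When unfolded protein gathers in the lumen, the membrane sensors Ern1 (IRE1), Eif2ak3 (PERK) and Atf6 signal to the nucleus through Xbp1, Atf4 and a fragment of Atf6 itself, and the genes of this folding machinery are then transcribed more. Cells that secrete heavily depend on it: hepatocytes, which make most plasma proteins, and in lung the surfactant-making alveolar cells, the airway secretory cells and the antibody-making plasma cells.

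The control letters of this response can be read in the members' promoters. RefSeq promoter windows on build GRCm38.p6, from 250 bases before to 50 bases after the start site, were available for 28 of the 33 members, as 29 windows because Derl2 has a pair. The endoplasmic reticulum stress element (ERSE), which is CCAAT, any 9 bases and then CCACG, was searched on both strands and occurred in 9 of the 29 member windows (31.0%), against 39 of all 32851 windows (0.119%). Its short form ERSE-II, which is ATTGG, any 1 base and then CCACG, occurred in 2 member windows (6.90%), against 12 of all windows (0.0365%). No member window held both forms. The members were chosen as genes of this pathway, and each match is a description of letters, not a measured binding site. Only exact matches were sought, so near matches stay in lower case and are not counted. The windows below are those of Creld2 and Calr, whose transcripts fell in lung, of Syvn1, whose transcript fell in liver, and of Hspa5, the textbook target, with the ERSE in capitals; where the match lies on the opposite strand, as in Creld2 and Calr, the capitals read CGTGG first and ATTGG last.
Creld2, chr15:88819396-88819695, plus strand: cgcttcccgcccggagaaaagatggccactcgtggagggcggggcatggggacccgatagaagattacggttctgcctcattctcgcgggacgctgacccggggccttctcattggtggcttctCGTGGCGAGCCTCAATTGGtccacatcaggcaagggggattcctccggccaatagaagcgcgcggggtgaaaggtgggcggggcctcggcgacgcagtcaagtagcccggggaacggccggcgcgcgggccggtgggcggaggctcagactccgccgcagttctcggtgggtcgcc
Calr, chr8:84846882-84847181, minus strand: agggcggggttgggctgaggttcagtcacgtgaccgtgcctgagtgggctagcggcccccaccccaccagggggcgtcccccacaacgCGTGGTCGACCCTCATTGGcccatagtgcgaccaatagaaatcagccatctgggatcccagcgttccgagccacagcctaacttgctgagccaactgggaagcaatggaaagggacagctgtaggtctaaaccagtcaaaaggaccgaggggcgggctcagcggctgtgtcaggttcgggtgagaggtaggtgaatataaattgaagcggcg
Syvn1, chr19:6046326-6046625, plus strand: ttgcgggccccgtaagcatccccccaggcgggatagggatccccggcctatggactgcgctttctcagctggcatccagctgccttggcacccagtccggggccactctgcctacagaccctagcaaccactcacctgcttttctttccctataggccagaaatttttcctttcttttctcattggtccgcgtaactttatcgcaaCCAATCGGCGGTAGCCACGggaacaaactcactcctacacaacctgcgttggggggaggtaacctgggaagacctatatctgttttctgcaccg
Hspa5, chr2:34771840-34772139, plus strand: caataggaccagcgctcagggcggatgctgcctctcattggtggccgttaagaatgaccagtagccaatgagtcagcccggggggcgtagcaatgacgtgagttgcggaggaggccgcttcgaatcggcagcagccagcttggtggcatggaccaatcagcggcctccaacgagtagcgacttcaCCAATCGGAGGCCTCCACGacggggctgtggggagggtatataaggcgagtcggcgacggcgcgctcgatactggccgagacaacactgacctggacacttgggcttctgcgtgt
Pdia4 also fell in lung, and its window, shown for contrast, held none of the motifs searched.
Pdia4, chr6:47813463-47813762, minus strand: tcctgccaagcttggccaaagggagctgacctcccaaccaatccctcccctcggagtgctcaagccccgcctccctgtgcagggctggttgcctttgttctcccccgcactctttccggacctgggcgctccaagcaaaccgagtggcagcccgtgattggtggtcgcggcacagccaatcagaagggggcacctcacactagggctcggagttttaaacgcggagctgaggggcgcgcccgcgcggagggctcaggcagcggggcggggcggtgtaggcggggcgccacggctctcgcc

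The other matches are shown in the direction of the motif, with the fixed letters in capitals and the free letters in lower case. Hsp90b1 had 2 of them on opposite strands, and the last pair listed, Herpud1 and Dnajb11, are ERSE-II.
Hsp90b1 first: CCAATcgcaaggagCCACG
Hsp90b1 second: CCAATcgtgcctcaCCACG
Pdia6: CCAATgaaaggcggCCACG
Derl3: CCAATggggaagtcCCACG
Canx: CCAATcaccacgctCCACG
Dnajc3: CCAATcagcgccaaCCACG
Herpud1: ATTGGgCCACG
Dnajb11: ATTGGcCCACG
The element TGACGTGG, known as the UPRE and bound by Xbp1, occurred in the window of Sec24d alone among the members and in 0.676% of all windows. The element of TGATG, any 1 base and AA, known as the CARE and bound by Atf4 with its partners, occurred in the windows of Herpud1 and Trib3 and in 3.97% of all windows.

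**Figure D1:**
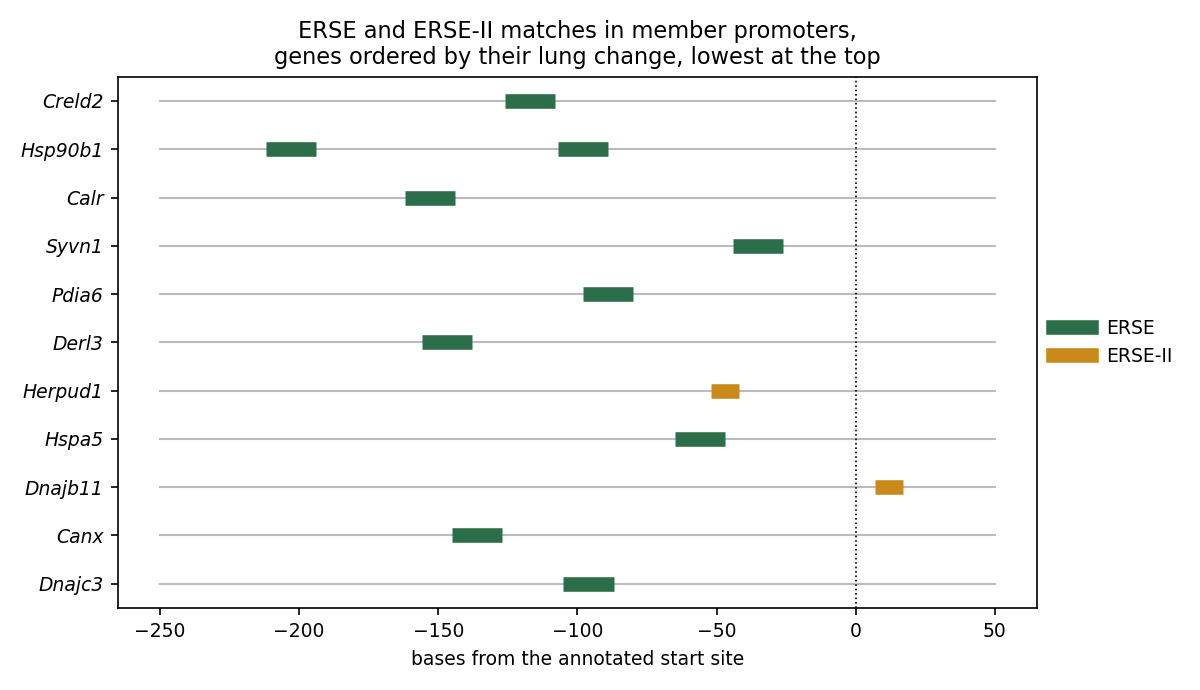
Positions of ERSE (green) and ERSE-II (amber) matches in the promoter windows of the 11 members that hold one, in bases from the annotated start site (dotted line), with genes ordered by their benzene over air change in lung, lowest at the top. All matches lie upstream of the start site except the ERSE-II of Dnajb11, which begins 7 bases past it.

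Recovered reads per library, in mega (M), ran from 9.71 to 12.7 M in benzene livers, 9.46 to 12.4 M in air livers, 8.40 to 10.02 M in benzene lungs and 8.30 to 11.9 M in air lungs. Lung air replicate 5 differed from all other lungs: it lacked reads for 894 listed genes, against 17 to 61 in the remaining 5 air lungs, so lung counts and the main members' changes are also given without it. All 8 hepatocyte markers were in the liver table, and all 8 alveolar type II and 4 type I markers were in the lung table. In lung, 6 of 6 listed squamous epithelium markers rose, with a summed level of 3697 to 4081 CPM in benzene lungs against 252 to 370 CPM in air lungs. There 5 of 8 muscle markers and 4 of 8 club and mucous cell markers fell; without air replicate 5 these were 6 of 7 tested muscle markers and 7 of 8 club and mucous cell markers, and 2 of 7 RNA quality genes (mt-Nd4 and mt-Nd1) fell too. In liver, 5 of 8 Kupffer cell markers rose, and 4 of 7 RNA quality genes (mt-Cytb, mt-Nd4, Neat1 and Malat1) fell. Over all genes, 0.735% fell and 0.819% rose in liver, and 2.29% fell and 3.38% rose in lung. Without air replicate 5, 6.95% of lung genes fell and 7.63% rose. The part of any of these marker or RNA quality changes in the changes below was not tested.

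Levels are the authors' normalized CPM, and changes are benzene minus air on log2(CPM + 1) ± SE from limma, called at a Benjamini-Hochberg adjusted p under 0.05 over all genes tested. This scale understates changes of genes near 0. Per kilobase of exon, P4hb, a disulfide isomerase, was the most abundant member in liver, at 463 ± 23.3 CPM per kb in benzene livers and 472 ± 5.31 CPM per kb in air livers (SD, n = 5 each). It was followed there by Herpud1, Calr and Pdia3, and in air livers the ranges of P4hb, Herpud1 and Calr did not overlap. In lung, P4hb (200.4 ± 5.22 CPM per kb in benzene lungs, 184 ± 11.3 in air lungs) and Pdia3 (182 ± 20.6 in benzene lungs, 191 ± 43.2 in air lungs; SD, n = 6 each) led, and their ranges overlapped in both groups. Derl3 was the lowest member in all 4 groups, at 0.515 ± 0.201 CPM per kb in benzene livers, 0.597 ± 0.312 in air livers, 0.754 ± 0.377 in benzene lungs and 1.02 ± 0.398 in air lungs.

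The liver comparison asked how these genes stood after benzene in the organ that oxidises most of it. Of 32 members tested, 1 fell and none rose, in a background where 0.735% of 11968 genes fell, 0.819% rose and 1.55% changed in either direction. Derl3 was listed but not tested, since it reached 1 CPM in too few livers. The median change of the tested members was -0.03, beside 0.00 over all genes, with 19 of 32 below 0. The summed level of all members was 6076 to 6658 CPM in benzene livers and 6259 to 6702 CPM in air livers, and these ranges overlapped.

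The liver gene that fell was Syvn1 (ENSMUSG00000024807, chromosome 19, 6046576 to 6053712 in GRCm38), the ubiquitin ligase of the degradation complex, also called HRD1. Its values were 50.3, 59.5, 53.0, 46.7 and 51.9 CPM in benzene livers and 57.0, 74.6, 77.1, 69.8 and 81.5 CPM in air livers. The lowest air liver stood under the highest benzene liver, and every other air value was above all benzene values. Its mean was 52.3 ± 4.68 CPM with benzene and 72.0 ± 9.40 CPM with air (SD, n = 5 each), a change of -0.45 ± 0.10 (limma adjusted p = 0.0264). The call was lost when air replicate 2, 3, 4 or 5 or benzene replicate 1, 3 or 5 was left out, with adjusted p from 0.00256 to 0.0987 over the 10 such limma fits. Syvn1 shares exonic bases with Mrpl49 on the other strand, and whether reads were counted by strand is not given in the sources used here. Its membrane partner Sel1l (change -0.12 ± 0.08, adjusted p = 0.594) and the derlins Derl1 (0.01 ± 0.06, adjusted p = 0.977) and Derl2 (0.06 ± 0.08, adjusted p = 0.820), which form the exit channel with it, did not pass in the same limma fit.

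Among the liver chaperones, Hspa5 (BiP, the master Hsp70 of the lumen) had 474, 476, 558, 503 and 540.2 CPM in benzene livers and 489, 485, 536, 534 and 545 CPM in air livers, which overlapped (change -0.02 ± 0.07, limma adjusted p = 0.936). Hsp90b1 (GRP94, the Hsp90 of the lumen) had 441, 413, 482, 453 and 419 CPM in benzene livers and 400.0, 423, 415, 400.4 and 429 CPM in air livers (change 0.09 ± 0.06, adjusted p = 0.576). Neither chaperone separated the groups. Hyou1, a nucleotide exchange factor for Hspa5 named after its values were seen, was lower in every benzene liver, at 62.4 to 90.9 CPM, than in any air liver, at 95.7 to 103 CPM. Its change of -0.28 ± 0.09 did not pass (limma adjusted p = 0.187), and 2.18% of all liver genes were as cleanly separated in that direction. Creld2, Manf, Calr, Pdia4 and Sdf2l1, described below for lung, had liver changes of 0.11 ± 0.11, -0.11 ± 0.11, -0.21 ± 0.07, -0.07 ± 0.08 and -0.24 ± 0.12 (limma adjusted p from 0.197 to 0.775), and their groups overlapped.

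Among the liver sensors and factors, Xbp1, the transcription factor whose mRNA is spliced by Ern1, had 181, 180, 186, 209 and 189 CPM in benzene livers and 176, 164, 166, 169 and 163 CPM in air livers. All benzene values stood above all air values, as for 2.07% of all liver genes, and the change of 0.17 ± 0.07 did not pass (limma adjusted p = 0.255). Gene-level values do not separate its spliced from its unspliced form. Ern1 itself had 39.5, 47.2, 47.7, 32.2 and 43.0 CPM in benzene livers and 57.4, 52.7, 50.2, 46.4 and 48.5 CPM in air livers, a change of -0.29 ± 0.11 that did not pass (adjusted p = 0.230). Atf4, the transcription factor of the PERK branch, had 131, 112, 128, 165 and 137 CPM in benzene livers and 102, 125, 133, 144 and 135 CPM in air livers (change 0.08 ± 0.10, adjusted p = 0.826). Its target Ddit3 (CHOP, a factor that promotes cell death under lasting stress) was low in liver, at 10.03, 5.66, 4.99, 8.13 and 7.33 CPM with benzene and 6.40, 7.99, 9.04, 9.87 and 9.005 CPM with air (change -0.22 ± 0.17, adjusted p = 0.630). The ranges of Ern1, Atf4 and Ddit3 overlapped between benzene and air livers.

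The lung comparison asked the same of the organ that benzene enters first. Of 33 members tested, 5 fell and none rose: Manf, Creld2 and Calr among the lumenal chaperones, the isomerase Pdia4 and the stress factor Ddit3. The background of 15706 genes had 2.29% falling, 3.38% rising and 5.67% changing in either direction. The members' median change was -0.13, beside 0.01 over all genes, with 23 of 33 below 0. By role, 3 of 11 lumenal chaperones fell (median -0.19), 1 of 4 disulfide isomerases (median -0.18), 1 of 7 sensors and factors (median 0.12), 0 of 7 degradation genes (median -0.19) and 0 of 4 translocation and export genes (median -0.11). Without air replicate 5, 5 of 11 lumenal chaperones fell (median -0.28), 1 of 4 isomerases (-0.19) and 1 of 7 degradation genes (-0.11), 1 sensor or factor fell and 1 rose (0.07), and none of the translocation and export genes passed (0.01). In that fit 6.95% of all genes fell and 7.63% rose. The lumenal chaperones summed to 2037 to 2258 CPM in benzene lungs and 2371 to 2810 CPM in air lungs, with no overlap. With air replicate 5 included, this depends on the scaling, since the authors' factor gave that library the largest total of values. No share over all genes was computed for such sums. In bulk tissue, fewer cells of a type and less RNA per cell cannot be told apart.

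Manf (ENSMUSG00000032575, chromosome 9, 106838312 to 106891979 in GRCm38), a small secreted protein that binds Hspa5 and protects stressed cells, had 80.7 CPM in the lowest, 86.9 in the median and 110 in the highest of the benzene lungs, against 134, 165 and 223 CPM in air lungs. No benzene lung reached any air lung. It averaged 91.1 ± 11.3 CPM in benzene lungs and 167 ± 30.7 CPM in air lungs (SD, n = 6 each), a change of -0.86 ± 0.12 (limma adjusted p = 0.000299), which was -0.77 ± 0.09 without air replicate 5, the highest air lung. Manf shares exonic bases with Dcaf1, Rbm15b and the antisense gene 4930524O07Rik.

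Creld2 (ENSMUSG00000023272, chromosome 15, 88819646 to 88826683), a secreted stress-induced isomerase-like protein, had a lowest, median and highest value of 39.1, 43.5 and 47.6 CPM in benzene lungs and 60.2, 63.5 and 69.9 CPM in air lungs. The gap between the groups was wider than the range within the benzene lungs. Its means were 43.2 ± 4.00 CPM with benzene and 64.4 ± 4.39 CPM with air (SD, n = 6 each), a change of -0.57 ± 0.08 (limma adjusted p = 0.000452), and of -0.55 ± 0.08 (5.13e-05) without air replicate 5.

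Calr (ENSMUSG00000003814, chromosome 8, 84841850 to 84846934), a calcium-binding lectin that holds newly made glycoproteins, had 346, 354 and 382 CPM as the lowest, median and highest value in benzene lungs and 425, 476 and 524 CPM in air lungs. The groups did not overlap. Its means were 359 ± 14.4 CPM with benzene and 476 ± 41.4 CPM with air (SD, n = 6 each), a change of -0.40 ± 0.08 (limma adjusted p = 0.00527), and of -0.40 ± 0.07 (0.000408) without air replicate 5. The call was lost with values rescaled to equal library totals (-0.28, adjusted p = 0.115). Its membrane-bound relative Canx, which does the same task, had 276 ± 13.8 CPM in benzene lungs and 280 ± 21.3 CPM in air lungs (change -0.02 ± 0.07, adjusted p = 0.897). The difference between the changes of these relatives was not tested.

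Pdia4 (ENSMUSG00000025823, chromosome 6, 47796141 to 47813430), an isomerase also called ERp72, had 81.0, 84.9 and 94.4 CPM in benzene lungs and 94.3, 112 and 122 CPM in air lungs as the lowest, median and highest value. The highest benzene lung just passed the lowest air lung, which was air replicate 5. Its means were 86.4 ± 5.11 CPM with benzene and 111 ± 10.5 CPM with air (SD, n = 6 each), a change of -0.35 ± 0.08 (limma adjusted p = 0.0171), and of -0.39 ± 0.07 (0.000405) without air replicate 5, when the groups no longer overlapped. The call was lost without benzene replicate 1 (adjusted p = 0.0557) or benzene replicate 3 (0.0523), and with values rescaled to equal library totals (-0.23, 0.262). Of the other isomerases, Pdia6 had a change of -0.31 ± 0.12 (adjusted p = 0.154), Pdia3 of -0.05 ± 0.15 (0.871) and P4hb of 0.13 ± 0.07 (0.308).

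Ddit3 (ENSMUSG00000025408, chromosome 10, 127290774 to 127296288) had 21.0, 25.0 and 27.7 CPM in benzene lungs and 26.8, 36.5 and 43.9 CPM in air lungs as the lowest, median and highest value. The groups overlapped at that edge. Its means were 24.9 ± 2.70 CPM with benzene and 35.4 ± 6.80 CPM with air (SD, n = 6 each), a change of -0.48 ± 0.13 (limma adjusted p = 0.0429), and of -0.42 ± 0.11 (0.0157) without air replicate 5. This call was the least stable of the 5, lost when any benzene library or air replicate 1, 2 or 3 was left out, with adjusted p from 0.0157 to 0.113 over the 12 such fits, and with values rescaled to equal library totals (0.0800). Ddit3 shares exonic bases with Mars on the other strand. Atf4, which induces it, had 193, 216 and 252 CPM in benzene lungs and 207, 233 and 291 CPM in air lungs, which overlapped (change -0.12 ± 0.10, adjusted p = 0.486).

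**Figure D2:**
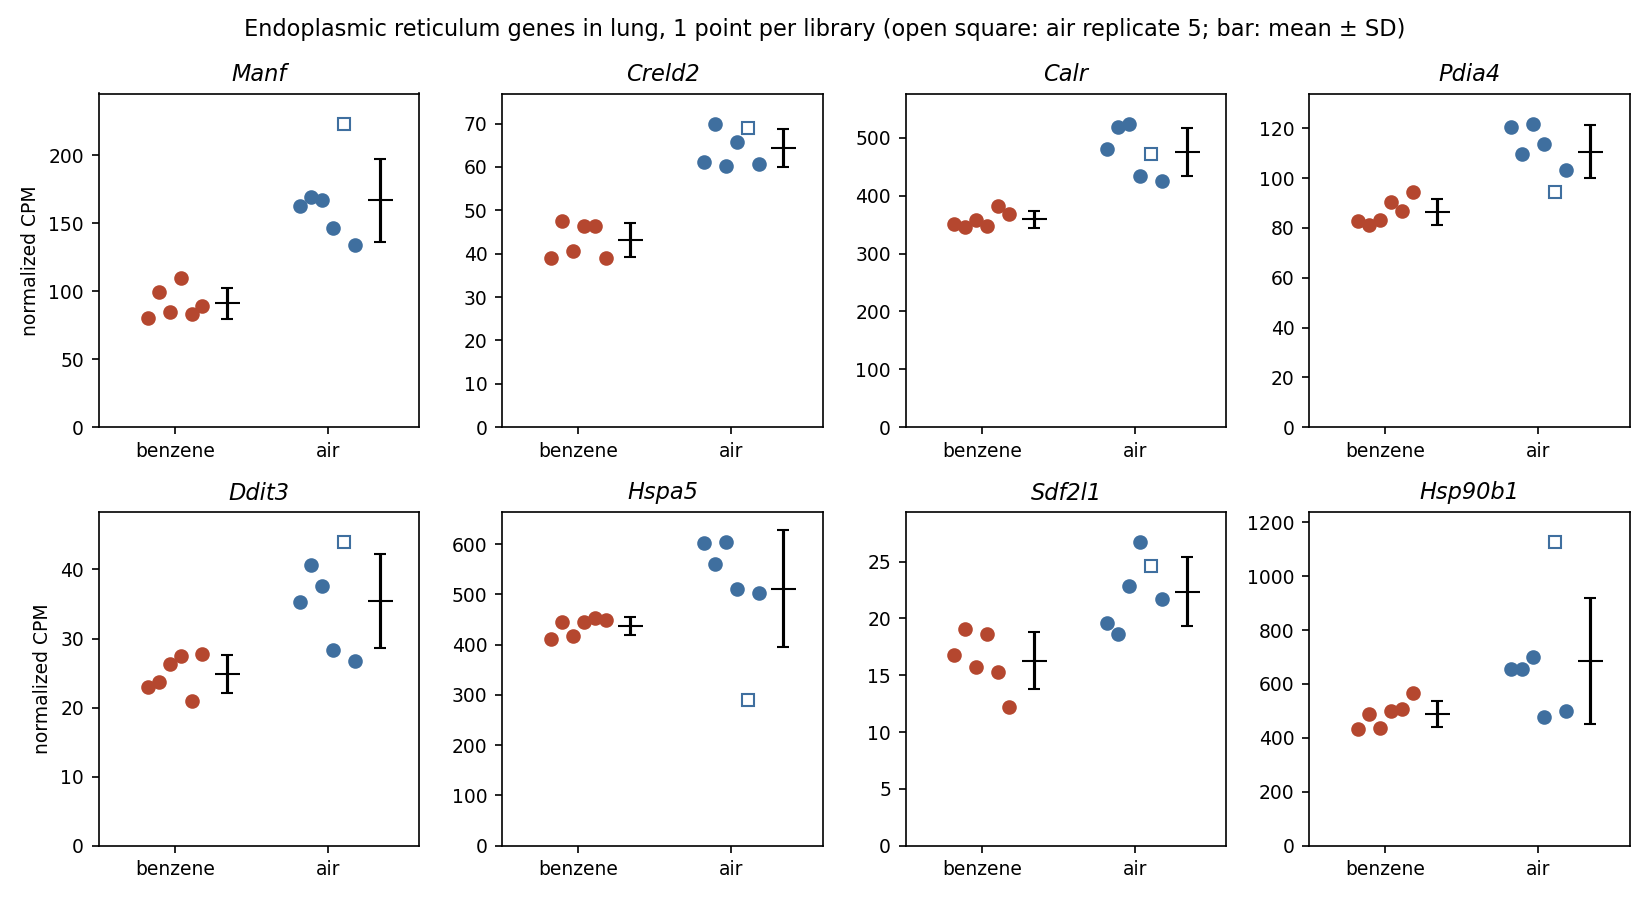
Normalized CPM of 8 members in each lung library, benzene at left and air at right in each panel, with the mean ± SD of each group (n = 6) as a bar and air replicate 5 as an open square. Manf, Creld2 and Calr do not overlap between the groups; air replicate 5 is the lowest air lung for Hspa5, at 290 CPM, and the highest for Hsp90b1, at 1126 CPM.

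The central chaperones did not pass in lung with all 12 libraries. Hspa5 had 411, 445 and 453 CPM in benzene lungs and 290, 536 and 604 CPM in air lungs as the lowest, median and highest value, a change of -0.19 ± 0.15 (limma adjusted p = 0.464). Only air replicate 5, at 290 CPM, lay below the benzene lungs. The other 5 air lungs had 502 to 604 CPM, and without that library the change was -0.35 ± 0.07 (adjusted p = 0.00162). Hsp90b1 had 435, 493.4 and 567.5 CPM in benzene lungs and 476, 655 and 1126 CPM in air lungs (change -0.43 ± 0.17, adjusted p = 0.162). It did not pass without that library either (-0.28 ± 0.10, adjusted p = 0.0667), and it shares exonic bases with the pseudogene 1810014B01Rik. Sdf2l1, a partner of the Hsp40 chaperones of the lumen, had 12.2, 16.3 and 19.1 CPM in benzene lungs and 18.7, 22.3 and 26.7 CPM in air lungs, overlapping at the edge. Its change was -0.44 ± 0.12 (adjusted p = 0.0552), and -0.41 ± 0.12 (adjusted p = 0.0254) without air replicate 5.

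Among the lung sensors and factors, Xbp1 had 202, 214 and 235 CPM in benzene lungs and 213, 230.3 and 269 CPM in air lungs (change -0.14 ± 0.08, limma adjusted p = 0.309). Ern1 had 33.1, 41.2 and 44.9 CPM in benzene lungs and 31.0, 35.3 and 40.7 CPM in air lungs (change 0.17 ± 0.10, adjusted p = 0.338). Both overlapped between the groups. Eif2ak3, named after its values were seen, had 27.3, 28.3 and 36.2 CPM in benzene lungs and 17.1, 22.6 and 28.5 CPM in air lungs, a change of 0.38 ± 0.12 that did not pass with all libraries (adjusted p = 0.0864). Without air replicate 5 its change was 0.30 ± 0.10 (adjusted p = 0.0485). Atf6 (0.14 ± 0.09, adjusted p = 0.358) and Trib3, a pseudokinase induced by Ddit3 (0.12 ± 0.14, adjusted p = 0.626), did not pass.

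Of the degradation genes in lung, Syvn1 had 39.0, 45.2 and 47.1 CPM in benzene lungs and 47.9, 54.0 and 66.2 CPM in air lungs. The groups did not overlap, as for 2.46% of all lung genes in that direction, and 4 of the 33 members were so separated (Manf, Creld2, Calr and Syvn1). No member was above every air lung in every benzene lung, as 3.67% of all lung genes were. Its change of -0.32 ± 0.09 was just short of the threshold with all libraries (limma adjusted p = 0.0543), and was -0.31 ± 0.09 (adjusted p = 0.0227) without air replicate 5. Derl3, a derlin of secretory cells, had 0.438, 1.47 and 2.73 CPM in benzene lungs and 1.35, 1.88 and 3.58 CPM in air lungs, overlapping over most of the range (change -0.30 ± 0.23, adjusted p = 0.439). The other 5 degradation genes had changes from -0.20 ± 0.12 for Derl2 to 0.02 ± 0.07 for Sel1l. Of the translocation genes, Sec61b, a subunit of the protein-conducting channel, had a change of -0.18 ± 0.24 (adjusted p = 0.660), or 0.04 ± 0.13 (0.856) without air replicate 5, and Sec24d, a coat protein of export vesicles, of 0.24 ± 0.18 (adjusted p = 0.434).

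Without air replicate 5, 8 of 33 members fell and 1 rose, in a background of 6.95% falling, 7.63% rising and 14.6% changing in either direction. The median of the members was then -0.10. The 5 members called with all libraries were among the 8, joined by Hspa5, Sdf2l1 and Syvn1, and the member that rose was Eif2ak3. Hyou1 and Sec61b were the 2 members whose change turned sign, Hyou1 to -0.24 ± 0.09 (adjusted p = 0.0744), against 0.07 with all libraries; neither passed in either fit. Hspa5, Creld2, Manf, Calr, Pdia4 and Syvn1 were then lower in every benzene lung than in any of these air lungs, as were 4.07% of all genes, and no member was higher in every benzene lung, as were 5.06%.

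**Figure D3:**
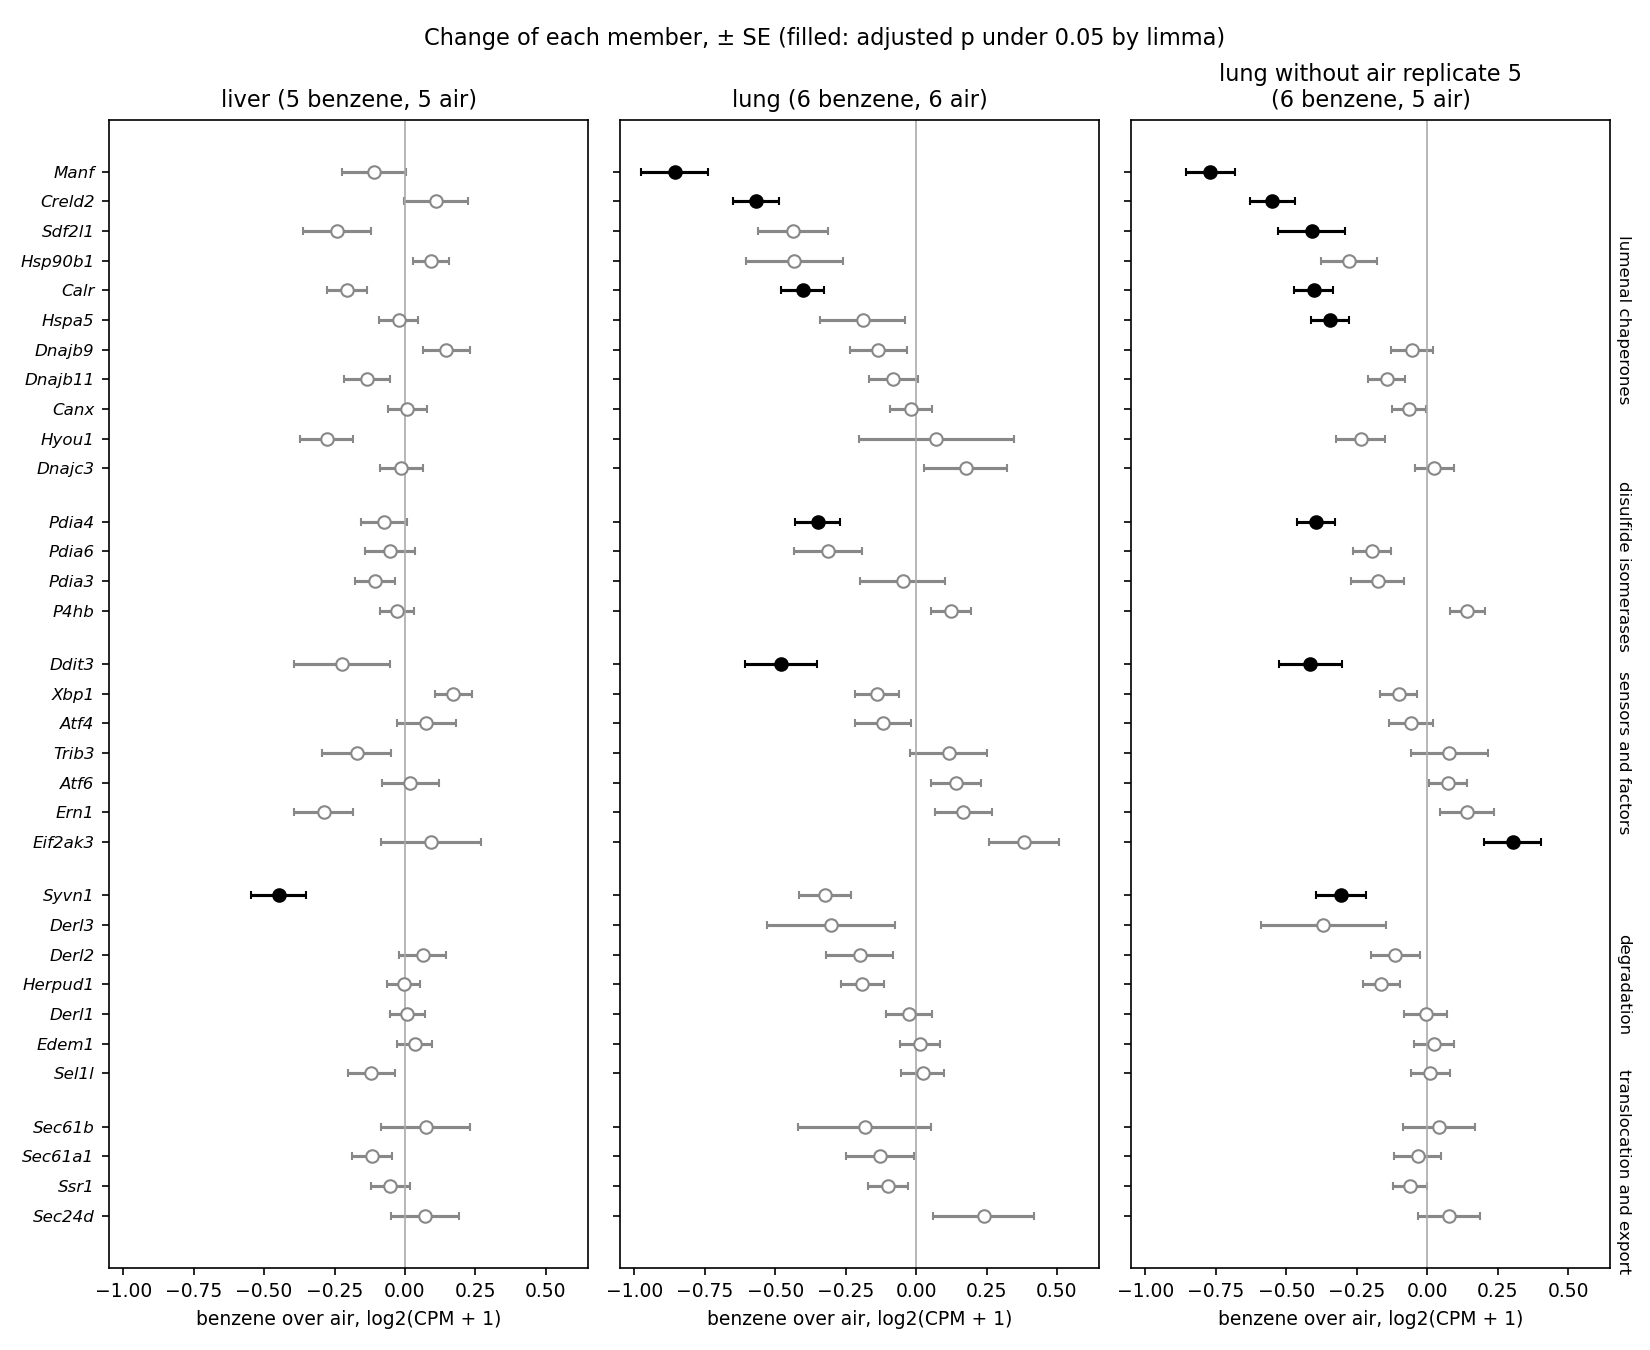
Benzene over air change of each member on log2(CPM + 1), ± SE, in liver (left), lung (middle) and lung without air replicate 5 (right), with members grouped by role and filled points for limma adjusted p under 0.05. Derl3 has no liver point because it was not tested there; Manf has the lowest lung change, -0.86, and Syvn1 the lowest liver change, -0.45.

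The response was compared between the tissues in 1 limma fit, as the liver change minus the lung change. The labels do not say whether a liver and a lung library came from the same mouse, and the fit took all libraries as independent. Of 32 members tested, 2 differed, both with the lung change lower: Creld2 by 0.68 ± 0.14 (adjusted p = 0.0121) and Manf by 0.75 ± 0.18 (adjusted p = 0.0334). In the background, 0.719% of 11266 genes had such a positive difference, 0.692% a negative one and 1.41% either. Creld2 had 33.4, 26.5, 28.9, 40.4 and 35.4 CPM in benzene livers and 26.2, 34.4, 30.8, 31.4 and 28.3 CPM in air livers, which overlapped. Manf had 98.5, 80.6, 74.7, 109 and 102 CPM in benzene livers and 77.0, 108, 108, 100.2 and 107 CPM in air livers, which overlapped too. The difference for Creld2 passed in each of 22 fits that left out 1 library (adjusted p from 0.00372 to 0.0308), and that for Manf in 10 of the 22 (0.0127 to 0.0789). The differences for Calr (0.20 ± 0.11, adjusted p = 0.414) and Syvn1 (-0.12 ± 0.14, adjusted p = 0.671) did not pass.

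Members with an ERSE or ERSE-II in their window had a median lung change of -0.30, and 2 of the 11 fell (Creld2 and Calr). The 17 members whose windows hold neither had a median of -0.10, and 2 of them fell (Pdia4 and Ddit3), where 2.29% of all lung genes fell. Without air replicate 5, 4 of the 11 fell (adding Hspa5 and Syvn1), and of the 17 without a match 3 fell (adding Sdf2l1) and Eif2ak3 rose, where 6.95% of all genes fell and 7.63% rose; the medians were -0.28 and -0.06. In liver the medians were -0.02 for the 10 tested genes with a match, of which Syvn1 fell, and -0.03 for the 17 without, of which none fell. Manf, Hyou1, Atf6, Derl1 and Sec61a1 are in neither class. The difference between the classes was not tested.

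Wider lists of the same pathways are described by their counts. In lung with all libraries, 1 of 21 other folding and oxidation factors fell, Serpinh1, the collagen chaperone, at 209.7 ± 12.7 CPM in benzene lungs and 295 ± 31.5 CPM in air lungs (limma adjusted p = 0.00309). Among 18 glycosylation and quality control genes, 1 fell, Dad1, a subunit of the oligosaccharyltransferase, at 114 ± 11.7 CPM with benzene and 149 ± 12.1 CPM with air (adjusted p = 0.0149). None of 11 other degradation genes and none of 29 other translocation and export genes passed. Of 28 targets of Atf4 in the integrated stress response, 1 rose, Sesn2, a stress-induced inhibitor of growth signalling, at 22.2 ± 4.17 CPM with benzene and 15.1 ± 1.74 CPM with air (adjusted p = 0.0332). Among 15 other sensors and factors, 1 rose, Mbtps2, a protease that cuts Atf6, at 16.3 ± 1.40 CPM with benzene and 12.3 ± 1.55 CPM with air (adjusted p = 0.0492; SD, n = 6 each for these lung means). The median changes of these 6 lists lay between -0.08 and 0.02. Over all lung genes, 2.29% fell and 3.38% rose in the fit with all libraries. The list counts moved without air replicate 5, when 6.95% of all genes fell and 7.63% rose. Of the 21 folding factors, 5 then fell (Ppib, Kdelr1, Pdia5, Serpinh1 and Erp29) and 2 rose (Ero1l and Hspa13). Of the 18 glycosylation genes, 2 fell and 1 rose. Of the 11 degradation genes, Rnf5 fell, and of the 29 translocation and export genes, Srprb fell. Of the 28 Atf4 targets, 4 fell (Wars, Asns, Sars and Nupr1) and 2 rose (Slc7a11 and Sesn2). Of the 15 sensors and factors, Creb3l1 fell and Mbtps2 rose.

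In liver, 2 of 23 tested Atf4 targets fell, where 0.735% of all genes fell and 0.819% rose. Cth, a cysteine-making enzyme, had 468 ± 29.5 CPM in benzene livers and 567 ± 31.1 CPM in air livers (limma adjusted p = 0.0439), and the transcription factor Atf5 had 234 ± 10.6 CPM with benzene and 286 ± 17.7 CPM with air (adjusted p = 0.0383). Among 15 other sensors and factors, Creb3l3, a liver membrane-bound factor cut like Atf6, rose, at 285 ± 10.8 CPM in benzene livers and 234 ± 9.48 CPM in air livers (adjusted p = 0.0276; SD, n = 5 each for these liver means). None of the other 4 pathway lists had a liver gene past the threshold.

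Chaperones of the cytosol were counted beside those of the reticulum. Of 20 cytosolic heat shock genes in lung, 10 fell and none rose, where 2.29% of all genes fell, with a median change of -0.49 and a summed level of 3679 to 4373 CPM in benzene lungs against 5228 to 6533 CPM in air lungs. The lowest changes among those past the threshold were those of Hspa8 (-0.80 ± 0.13), Stip1 (-0.70 ± 0.09) and Hsp90ab1 (-0.63 ± 0.11), with limma adjusted p from 0.000235 to 0.00263. When air replicate 5 was left out, 15 of the 20 fell and none rose, with a median of -0.45, where 6.95% of all genes fell. In liver none of the 20 passed, and their median change was -0.02.

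Whether the lung fall tracked the loss of immunoglobulin transcripts was asked within each group. Of 12 immunoglobulin constant genes, 11 were in the lung table, 7 fell and Ighg3 rose, and their summed level was 502 to 658 CPM in benzene lungs and 1070 to 1531 CPM in air lungs. Of 10 plasma cell markers, 8 were in the lung table (not Tnfrsf17 and Fcrl5), and Jchain, which links antibody units, fell, at 44.0 ± 6.33 CPM in benzene lungs and 100.3 ± 36.7 CPM in air lungs (SD, n = 6 each, limma adjusted p = 0.000798). Mzb1, a chaperone partner of plasma cells, had 8.58 ± 2.06 CPM with benzene and 15.6 ± 8.98 CPM with air (adjusted p = 0.139), and Sdc1, Prdm1 and Irf4 did not pass. In the fit without air replicate 5, Jchain fell while Prdm1 and Cd38 rose, so that 1 of the 8 was lower and 2 were higher, and 8 of the 11 immunoglobulin genes fell. In that fit 6.95% of all genes fell and 7.63% rose, against 2.29% and 3.38% with all libraries. The plasma cell list summed to 372 to 421 CPM in benzene lungs and 393 to 485 CPM in air lungs, most of it Sdc1, which epithelium also expresses. Of 12 B cell markers, Cd79a fell.

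**Figure D4:**
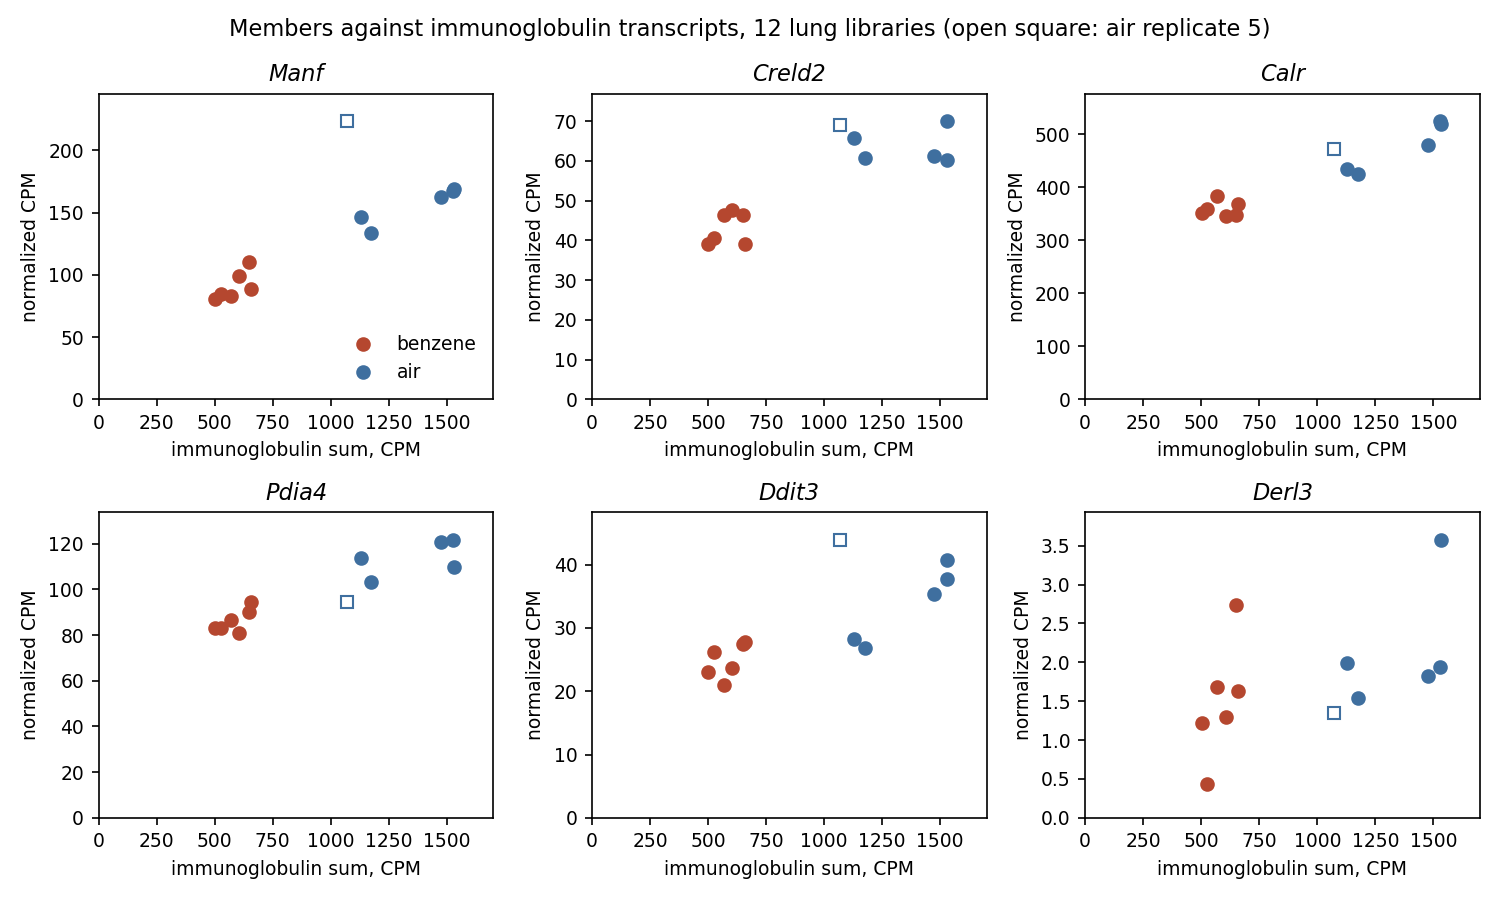
Normalized CPM of 6 members against the summed CPM of immunoglobulin constant genes in the 12 lung libraries, benzene in red and air in blue, with air replicate 5 as an open square. The groups are apart on the horizontal axis, at 502 to 658 CPM for benzene and 1070 to 1531 CPM for air. The air lung with the lowest immunoglobulin sum, replicate 5, has the highest Manf. The authors' factor gave that library the largest total of values, so both of its values depend on the scaling.

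The immunoglobulin sum separated the groups completely, so no pooled correlation is given. Within groups, 66 relations were computed (33 members in benzene lungs and in air lungs), and none passed after Benjamini-Hochberg adjustment of exact two-sided permutation p-values (lowest adjusted p = 0.126 for Pearson's r and 0.275 for Spearman's rho). With 6 libraries a group, the smallest p this test can give is too large for 1 relation alone to pass over 66. The adjusted result therefore cannot decide whether any single member tracked the immunoglobulin sum. At an unadjusted p under 0.05, 5 Pearson relations passed in benzene lungs, 1 of them positive, and 8 in air lungs, 4 of them positive. Spearman's rho gave 2 in benzene lungs and 6 in air lungs. Pearson's r was above 0 for 21 of 33 members in benzene lungs (median 0.19) and for 17 of 33 in air lungs (median 0.04).

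For Manf, r was 0.73 in benzene lungs (exact permutation p = 0.113; rho 0.77, p = 0.103) and -0.11 in air lungs (p = 0.886; rho 0.09, p = 0.919). For Creld2, r was 0.36 in benzene lungs (exact permutation p = 0.461; rho 0.09, p = 0.919) and -0.26 in air lungs (p = 0.625; rho -0.09, p = 0.919). For Calr, r was 0.02 in benzene lungs (exact permutation p = 0.963; rho -0.03, p = 1.00) and 0.79 in air lungs (p = 0.122; rho 0.71, p = 0.136). Pdia4 was positive in both, with r of 0.71 in benzene lungs (exact permutation p = 0.118; rho 0.66, p = 0.175) and 0.73 in air lungs (p = 0.125; rho 0.54, p = 0.297). Ddit3 had r of 0.53 in benzene lungs (exact permutation p = 0.264; rho 0.71, p = 0.136) and 0.31 in air lungs (p = 0.469; rho 0.09, p = 0.919). The adjusted p of these 10 Pearson relations was between 0.322 and 0.972. The air relations include air replicate 5, and none was computed without that library alone. The 2 libraries of each group farthest from its median immunoglobulin sum were then left out, in air replicates 4 and 5. In benzene and in air lungs, r was 0.91 and 1.00 for Manf, 0.79 and 0.39 for Creld2, and -0.50 and 0.96 for Calr. It was 0.50 and 0.76 for Pdia4, and 0.24 and 0.98 for Ddit3. Spearman's rho was 0.8 and 1 for Manf, 0.8 and 0.4 for Creld2, and -0.6 and 0.8 for Calr. It was 0.4 and 0.4 for Pdia4, and 0.4 and 1 for Ddit3. In air, replicates 1, 2 and 3 were close, at 1475, 1531 and 1529 CPM. Replicate 6 stood apart at 1175 CPM, so r there rests largely on that library. With 4 libraries a group the smallest exact p was 0.0417, which is the lowest that 4 libraries can give. No relation passed after adjustment, but to pass, most of the relations would have had to reach that value, so this setting cannot decide the question. With the summed plasma cell list in place of the immunoglobulin sum, no relation passed after adjustment either (lowest adjusted p of the exact permutation tests = 0.214). The limit for 1 relation alone holds there too. Most of that sum is Sdc1, which epithelium also expresses, so the values below cannot stand for plasma cell content. The median r with the plasma cell list was 0.04 in benzene lungs and -0.08 in air lungs. For Pdia4, r turned to -0.62 in benzene lungs and -0.64 in air lungs, and for Calr to -0.73 in benzene lungs and -0.84 in air lungs. It lay between 0.06 and 0.24 in both groups for Manf and Creld2, and was 0.10 in benzene lungs and -0.34 in air lungs for Ddit3.

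In liver the immunoglobulin sum was 11.98 to 15.6 CPM with benzene and 7.01 to 13.0 CPM with air, from 3 listed genes of which none passed. With the log2 immunoglobulin sum as a covariate in the lung fit, 1 member was called (Sec61a1, at -1.25 ± 0.24, limma adjusted p = 0.0465) and 64 of all genes (0.407%). Manf was then at -0.67 ± 0.39 and Creld2 at -0.55 ± 0.27, with SEs more than 3 times those without the covariate. Without air replicate 5 in that fit, Hsp90b1 and Pdia3 were called as higher and Hyou1 and Sec61a1 as lower, with 4.23% of all genes called, and Manf was at 0.06 ± 0.24. Because the immunoglobulin sum does not overlap between the groups, benzene and the immunoglobulin level cannot be told apart in these libraries.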

How the data were processed

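Libraries were 150-base read pairs from poly-A RNA. The authors deposited 1 table per tissue holding a normalized signal per gene and library, headed CPM. Per the submitters' processing notes, fastp 0.20.0, STAR and edgeR 3.10 were used with GRCm38; the read counter, annotation, strand setting and filter were not stated there or in the labels. All values were whole reads, within 0.01, times 1 factor per library. The authors' deposited changes, p-values and group means were not used. The tables were normalized separately, so tests were made within each, except for the difference between tissues, which contrasts the change found within each table.

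Genes at 1 or more in at least 5 liver or 6 lung libraries entered limma-trend on log2(value + 1), with limma 3.58.1 under R 4.3.3 and Benjamini-Hochberg adjustment over all genes tested at 0.05. Exon lengths and overlaps came from GENCODE M21, in which 12255 of 12259 liver identifiers and 15955 of 15971 lung identifiers were found. The scripts were tested on simulated data. Alternatives were edgeR 4.0.16 and DESeq2 1.42.0 on recovered reads, rescaling to equal library totals or by TMM, other filters, a pseudocount of 0.1, array weights, a replicate block, all 22 libraries in 1 fit, an immunoglobulin covariate and leaving out each library. Counting error on low values covers reads only, since no molecular identifiers were used.

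Members given in detail were those past the threshold in liver, lung or the difference, and the 6 largest changes called without lung air replicate 5. Hspa5, Hsp90b1, Xbp1, Ddit3, Atf4, Ern1 and Derl3 were given whatever their result. Their lung values are printed as the lowest, median and highest. Their liver values are printed by library, except for Calr, Pdia4, Sdf2l1 and Derl3, which have only a change or a mean there. Of wider lists, up to 3 called genes each were named. Other members and the genes called without lung air replicate 5 are named outside this rule, to account for each role and small count, and were chosen after their values were seen. The members, gene lists, tests and alternatives were chosen with earlier results of these data known.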

Additional observations from a re-analysis of the deposited data

Results flagged for a closer look

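Of 132 sets of values (33 members in 4 groups), 19 held a library that stood far from the others of its group, where chance flags about 1 set in 20. Lung air replicate 5 accounted for 8 of them. It was the lowest air lung for Hspa5 (290 CPM, others 502 to 604), Hyou1 (24.6 CPM, others 80.8 to 106), Dnajc3 (100.9 CPM, others 181 to 202), Canx (239 CPM, others 280.3 to 299) and Atf6 (49.0 CPM, others 62.4 to 68.2). It was the highest air lung for Hsp90b1 (1126 CPM, others 476 to 699), Pdia6 (455 CPM, others 272 to 297) and Sec61b (187 CPM, others 62.1 to 82.7). Among the other lungs, Derl1 was lowest in benzene replicate 6 (106 CPM, others 121 to 129) and Derl3 highest in air replicate 2 (3.58 CPM, others 1.35 to 1.99).

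In benzene livers, Hyou1 was lowest in replicate 4 (62.4 CPM, others 83.4 to 90.9), Dnajb11 highest in replicate 3 (80.7 CPM, others 62.7 to 67.1), Canx highest in replicate 3 (272 CPM, others 231 to 242) and Sdf2l1 highest in replicate 1 (31.3 CPM, others 21.0 to 23.3). In air livers, replicate 1 was highest for Dnajb9 (67.5 CPM, others 53.7 to 56.1) and Dnajc3 (184 CPM, others 150.1 to 155) and lowest for Manf (77.0 CPM, others 100.2 to 108) and Ssr1 (93.1 CPM, others 108 to 109). P4hb was lowest in air liver replicate 2 (1325 CPM, others 1352 to 1362).

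The response differed between the tissues for Creld2, by 0.68 on log2(CPM + 1) as the liver change minus the lung change (limma adjusted p = 0.0121), and for Manf, by 0.75 (limma adjusted p = 0.0334).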

How the results depend on the processing

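The 5 members called in lung were 6 by edgeR, 8 by DESeq2 (7 lower, 1 higher), 11 with array weights (10 lower, 1 higher) and 2 (Creld2 and Manf) with values rescaled to equal library totals, where the median of all genes moved to 0.12 and that of the members to -0.01. The count was 5 with TMM scaling, another filter or a pseudocount of 0.1, 6 with all 22 libraries in 1 fit, and 3 to 9 when 1 library was left out. It was 1 with the immunoglobulin covariate and 4 with that covariate and without air replicate 5. Over all genes, edgeR on the recovered reads called 197 in liver and 871 in lung, where limma called 186 and 891. The limma share of all lung genes called was 5.67% with all libraries. It was 14.6% without air replicate 5, where 8 members fell and 1 rose. With the covariate it was 0.407%, and 4.23% with the covariate and without air replicate 5. For the other settings no such share is given, so their member counts are not set against all genes. The 1 member called in liver was Syvn1, called in every fit with all libraries; with 1 library left out the count was 0 or 1. The 2 members that differed between tissues were 3 by DESeq2 and 1 or 2 with 1 library left out.

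Same-numbered libraries did not deviate together (r from -0.13 to 0.19 in liver, with 1 of 5 pairs over 0.1, and from -0.36 to 0.10 in lung, with 0 of 6), so the numbers were not taken as pairs. With the replicate block, 1 member was called in liver, 2 in lung (Creld2 and Manf) and 0 in the difference between tissues.

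The alternatives were run on the counts and on 14 of the members. Of their changes, those that reversed sign, none of them called except where stated, were Hspa5 in liver (0.0093) and Atf4 in lung (0.0046) when rescaled to equal totals, and Atf4 in liver with array weights (-0.014). With 1 library left out, Atf4 in liver ran from -0.0031 to 0.14 and Hspa5 in liver from -0.055 to 0.0032. With the immunoglobulin covariate, Pdia4 in lung was at 0.13, Hspa5 at 0.95 and Derl3 at 1.12. With that covariate and without air replicate 5, Manf was at 0.057, Calr at 0.050, Ddit3 at 0.66, Hspa5 at 0.19, Hsp90b1 at 0.95 (called, adjusted p = 0.0121 by limma), Atf4 at 0.36, Derl3 at 1.14 and Eif2ak3 at -0.72. Over all 33 members, 2 lung changes turned sign without air replicate 5, 9 with the covariate and 20 with both. The covariate and the groups do not overlap, and further causes were not tested. Members under a few CPM, Derl3 above all, were limited by depth.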
